A study of Mus musculus with 14 samples.

Results

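710 mouse genes carried 2 or more H3K4me3 regions with different coordinates in the cerebral cortex. The regions of each gene were compared with each other. A gene was taken where its symbol stood beside at least 2 measured regions with different coordinates, and regions with no matched gene were left out. The choice used positions and gene names, not levels. It gave 1556 of 14881 measured regions, and 710 of the 10542 genes with any region (6.73%). 613 genes had 2 regions, 71 had 3, 19 had 4, 4 had 5, and 3 genes had 6, 7 and 8 (Pde4d, Bcor and Gm13152). In 26 same-gene pairs the 2 regions overlapped, so these are not separate stretches. The mice were C57BL/6J, 3 months old, and 14 libraries were compared in 4 groups. The postnatal groups, named so by their labels, received nicotine or, as control, saccharin after birth only (4 libraries each). The pre- and postnatal groups received nicotine or saccharin before and after birth (3 libraries each). For all groups the treatment text describes a solution given to pregnant dams from conception, withdrawal at day 21 and sampling at day 90, so the postnatal-only course is known from the group names alone. Levels are read counts per region that the submitters had adjusted with edgeR, each exposure in its own table, and the raw depth is unknown.

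H3K4me3 is laid down around active transcription start sites, mostly at promoters rich in CG dinucleotides, and its level follows how open and active a promoter is. Many brain genes have several promoters: each start gives a transcript with its own first exon, which can change the protein's beginning, its targeting in the neuron or the cells that make it. Bdnf, encoding a neurotrophic factor, is a textbook case in cortex, with activity-dependent and other promoters spread along its 5′ side. If each region of a gene marks a promoter, the mark therefore reports on the promoters separately, while RNA totals add them up. A second region can also be a weak or unannotated start, or an enhancer, which these data do not tell apart. In 626 genes all regions carried 1 accession, and 84 genes had 2 or more. Of the 549 genes with a start in the RefSeq promoter table, 303 had 1 start and 246 had 2 or more. For most genes, then, neither source lists a separate start for the second region.

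To see how the promoters of a gene differ in sequence, regions were matched to RefSeq starts by spacing. A pair of regions was matched where 2 starts of the gene (assembly GRCm38.p6) lay as far apart as the region midpoints (build mm9) within 500 bp, at a distance of at least 2500 bp. Of 401 pairs tried, 127 matched, in 118 genes. Where a gene had more than 2 starts, the start pair closest in spacing was taken, so more starts gave more chances of a match. Only 2 starts were listed for 58 of the 118 genes. In counts over all 118 genes, the matched pair with the largest level difference stands for its gene. Midpoint spacing does not place a start inside a region, so each match is an inference from distance. The 250 bases before the start are shown, 5′ to 3′, for 4 genes chosen after their values were seen. In Spag9 and Clasp2 the far stronger region was matched to the CG-rich start. In Rtn1 the start matched to the stronger region had fewer CG. The Bdnf pair gave the same order, but on an uncertain match. The region in each label is the one matched by spacing, and the Bdnf labels may be wrong. Capitals mark each CG dinucleotide. For each gene the stronger region comes first.
Spag9 region 1, start chr11:93995841-93996090 on the + strand: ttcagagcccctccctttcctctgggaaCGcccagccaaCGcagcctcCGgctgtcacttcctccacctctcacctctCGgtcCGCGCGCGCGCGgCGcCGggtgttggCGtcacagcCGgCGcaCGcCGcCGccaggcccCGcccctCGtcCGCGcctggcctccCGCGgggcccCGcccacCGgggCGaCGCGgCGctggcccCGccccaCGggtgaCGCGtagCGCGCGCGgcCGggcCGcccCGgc
Spag9 region 2, start chr11:94043880-94044129 on the + strand: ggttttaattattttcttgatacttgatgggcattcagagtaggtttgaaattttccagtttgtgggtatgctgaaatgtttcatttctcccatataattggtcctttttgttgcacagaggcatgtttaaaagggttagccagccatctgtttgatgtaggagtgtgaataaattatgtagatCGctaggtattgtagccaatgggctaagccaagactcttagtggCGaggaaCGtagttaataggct
Clasp2 region 1, start chr9:113741223-113741472 on the + strand: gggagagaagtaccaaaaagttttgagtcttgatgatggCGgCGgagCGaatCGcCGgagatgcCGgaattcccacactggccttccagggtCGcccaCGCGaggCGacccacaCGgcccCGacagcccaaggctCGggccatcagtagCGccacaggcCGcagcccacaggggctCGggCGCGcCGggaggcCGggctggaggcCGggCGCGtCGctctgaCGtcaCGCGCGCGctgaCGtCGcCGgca
Clasp2 region 2, start chr9:113793080-113793329 on the + strand: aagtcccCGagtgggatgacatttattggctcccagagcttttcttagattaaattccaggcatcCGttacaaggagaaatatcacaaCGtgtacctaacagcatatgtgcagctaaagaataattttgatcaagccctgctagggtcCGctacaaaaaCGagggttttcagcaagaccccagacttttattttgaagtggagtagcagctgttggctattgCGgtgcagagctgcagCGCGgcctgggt
Bdnf region 2, start chr2:109709133-109709382 on the + strand: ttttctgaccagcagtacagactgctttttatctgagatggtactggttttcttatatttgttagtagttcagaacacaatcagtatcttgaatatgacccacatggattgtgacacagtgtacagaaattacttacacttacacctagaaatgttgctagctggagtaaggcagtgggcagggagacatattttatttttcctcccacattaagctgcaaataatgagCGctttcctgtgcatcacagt
Bdnf region 1, start chr2:109692186-109692435 on the + strand: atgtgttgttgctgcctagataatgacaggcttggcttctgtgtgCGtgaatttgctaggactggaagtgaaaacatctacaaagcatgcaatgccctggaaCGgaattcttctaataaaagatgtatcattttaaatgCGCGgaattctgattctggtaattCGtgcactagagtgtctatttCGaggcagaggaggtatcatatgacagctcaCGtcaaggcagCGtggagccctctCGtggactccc
Rtn1 region 2, start chr12:72409055-72409304 on the - strand: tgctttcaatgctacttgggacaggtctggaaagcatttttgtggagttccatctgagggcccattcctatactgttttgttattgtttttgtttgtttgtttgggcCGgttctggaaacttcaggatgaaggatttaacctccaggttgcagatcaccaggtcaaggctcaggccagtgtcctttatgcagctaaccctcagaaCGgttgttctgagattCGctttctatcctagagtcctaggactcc
Rtn1 region 1, start chr12:72236728-72236977 on the - strand: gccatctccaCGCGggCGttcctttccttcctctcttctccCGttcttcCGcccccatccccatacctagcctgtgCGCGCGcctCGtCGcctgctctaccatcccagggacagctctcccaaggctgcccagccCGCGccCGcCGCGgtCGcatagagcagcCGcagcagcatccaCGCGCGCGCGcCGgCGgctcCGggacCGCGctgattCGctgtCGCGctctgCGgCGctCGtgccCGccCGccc

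Before the start matched to the stronger region of Spag9, which encodes a JNK scaffold protein, 41 CG stood in 250 bases against 3 for the weaker one. The Spag9 regions held 139.7 and 19.2 adjusted reads per kb in the postnatal table. Clasp2, encoding a microtubule plus-end protein, had 32 CG before the start matched to region 1 and 8 before the one matched to region 2. The Clasp2 levels were 181 and 11.8 adjusted reads per kb. As matched, Rtn1 went the other way, while for Bdnf the match is too uncertain to give a direction. By spacing, the Bdnf start with 9 CG was matched to the region with 26.6 adjusted reads per kb and the start with 1 CG to the region with 33.1. Bdnf has 7 listed starts, and the match rests on spacing alone, with positions not compared between the builds. Other starts may belong to these regions, so the Bdnf match and its order of CG are uncertain and may be wrong. No direction is taken from Bdnf, which stays among the matched genes counted below. The difference in level did not pass the test. Rtn1, encoding reticulon 1 of the endoplasmic reticulum, had 3 CG before the start matched to the upstream region with 81.1 adjusted reads per kb, and 35 CG before the one matched to the downstream region with 40.3.

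Over the 118 matched genes, the stronger region's start had a median of 19 CG in 250 bases and the weaker one 12, where all 32851 starts of the table had 6. The stronger start had more CG in 88 genes, the same number in 5 and fewer in 25. In 53 genes whose matched regions differed at least 2-fold per kb, the medians were 22 and 8, with more CG at the stronger start in 49, fewer in 3 and equal in 1. In 17 genes with at least 4-fold, the medians were 25 and 8 and the stronger start had more CG in 17 of 17. In 69 genes with a pair under 2-fold the medians were 16 and 14, and the stronger start had more CG in 42, fewer in 23 and the same in 4. The letters GGGCGG, on either strand, stood at 78.0% of stronger and 56.8% of weaker starts (32.7% of all starts in the table). The letters TATAAA stood at 1.69% and 4.24% (12.4% of all), and CCAAT at 30.5% and 42.4% (33.9% of all), also on either strand. These are counts over chosen, matched genes with no test, and members share the same libraries.

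**Figure D1:**
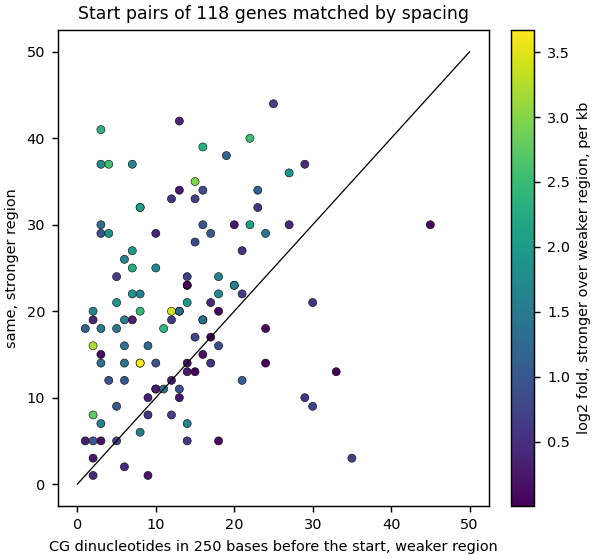
CG dinucleotides in the 250 bases before the RefSeq start matched to the weaker region (horizontal axis) and to the stronger region (vertical axis) of 118 genes, coloured by the log2 fold between the regions per kb. 88 genes lie above the line of equality and 25 below it, and all 17 genes with at least 4-fold lie above it.

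Genes with several regions carried less H3K4me3 per region than genes with a single one. The median level was 35.0 adjusted reads per kb for their regions, 59.6 for the 9832 regions of single-region genes and 32.8 for 3493 regions with no gene (postnatal table). In the pre- and postnatal table the medians were 24.9, 36.9 and 24.1. The ratio of members to single-region genes was 0.587 in the postnatal table, lower in 4 of 4 samples (exact two-sided sign-flip permutation test, p = 0.125, the smallest that 4 samples allow). It was 0.678 in the other table, lower in 6 of 6 (p = 0.03125 in the same exact permutation test, the smallest that 6 allow). The same regions were compared in every sample, so these p-values measure only the spread between samples, not between genes. No conclusion about the genes is drawn from them, and the medians are a description. The strongest region of each gene reached a median of 69.8 adjusted reads per kb and the second 22.0 in the postnatal table. Strongest regions were also wider, with a median of 1755.5 bp against 1280 bp for the second.

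Within a gene the 2 strongest regions differed by a median of 2.26-fold per kb, which is a description since the order was set by these values. 388 of 710 genes differed at least 2-fold, 175 at least 4-fold and 26 at least 10-fold, while 209 stayed under 1.5-fold. One and the same region was strongest in all 14 libraries in 430 genes (60.6%). By the mean of each table, 654 genes had the same strongest region in both tables and 56 did not. The strongest region held a median of 75.2% of a gene's summed signal in the postnatal table and 72.1% in the other. Where the gene strand was known, the region nearest the 5′ end was the strongest in 379 of 549 genes (69.0%). That share was 346 of 480 for genes with 2 regions, 26 of 48 with 3 and 7 of 21 with 4 or more.

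**Figure D2:**
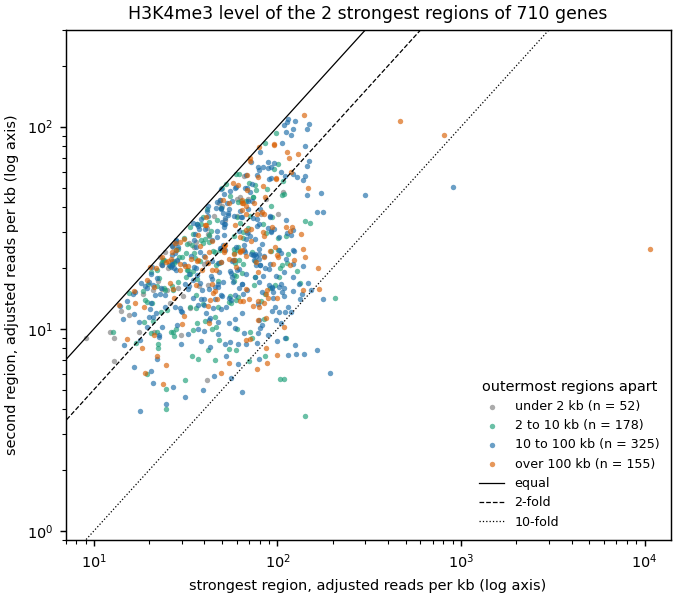
Level of the strongest region (horizontal axis) and of the second region (vertical axis) of 710 genes, in adjusted reads per kb on log axes, as the geometric mean of both tables; colours give how far apart the outermost regions of the gene lie and the lines mark equal levels, 2-fold and 10-fold. 388 genes lie at or below the 2-fold line and 26 at or below the 10-fold line, with Chl1 at the far right.

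The level difference between regions was tested over all pairs of neighbouring regions and all pairs of a gene, and a pair was called at an adjusted p under 0.05 and at least 2-fold per kb. Of the same-gene pairs, 627 of 1043 (60.1%) were called in the postnatal table by limma with Benjamini-Hochberg adjustment. The background share was 53.4% of all pairs and 52.9% of neighbours that belong to different genes or to none. The pre- and postnatal values gave calls in 529 of 1043 (50.7%), against 46.2% and 45.8%. Of 1042 same-gene pairs tested in both tables, 486, in 381 genes, were called in both in the same direction and 0 in opposite directions. The share called in both tables over all pairs is not given here. Under 2 kb apart, a class that takes in overlapping regions, 28.2% of same-gene pairs and 27.7% of other neighbours were called in the postnatal table. Over 100 kb apart it was 68.6% and 56.2%. Pairs that share an accession and pairs that do not were called in 59.9% and 61.7% in the postnatal table. The difference between the shares of same-gene and other pairs was not tested.

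Pde4d, encoding a cAMP phosphodiesterase whose long and short forms start at separate promoters, had 6 regions on chromosome 13, with 783853 bp between the outermost. Numbering regions along the chromosome, region 1 (chr13:109906133-109908373) and region 6 (chr13:110692226-110694183) were high and the 4 between were low. Region 6 gave 257 and 250.2 with saccharin and 238 and 254 with nicotine in the postnatal samples, where each value is the mean of a pair of libraries. Region 1 gave 125 and 156 with saccharin and 166 and 117 with nicotine, and regions 2 to 5 averaged 5.64, 19.8, 36.9 and 30.6. Per kb, the 3′ region 6 was 2.04-fold above the 5′ region 1 in the postnatal table (limma, Benjamini-Hochberg adjusted p = 9.90e-06) and 1.58-fold above it in the other (adjusted p = 6.71e-04).

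Bcor, an X-linked corepressor that works with BCL6 and Polycomb, had 7 regions, with 78071 bp between the outermost. On its minus strand the level was highest at region 1 (75.9 adjusted reads per kb, chrX:11655276-11658410), the 3′-most, then 53.1 and 50.1 at regions 2 and 3 and lowest with 14.1 at region 6, and stood at 31.3 at the 5′-most region 7. Region 1 exceeded region 7 by 2.37-fold per kb (limma, adjusted p = 5.02e-06) and by 1.90-fold in the other table (adjusted p = 3.30e-04). Gm13152, a predicted zinc finger gene, had 8 regions under 1 accession on chromosome 4, at 8.92 to 59.5 adjusted reads per kb. Such repeated hits of 1 accession may be near-identical copies, and how reads were split among them is not given in the sources used here.

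Genes with regions far apart included several with 2 high regions. Magi2, a synaptic scaffold, had the longest span, with 1472640 bp between region 1 (chr5:18731788-18734603) and region 5 (chr5:20207243-20208971). Region 5 held 171 and 167 with saccharin and 169.8 and 189.5 with nicotine and region 1 held 185 and 188 with saccharin and 179 and 199 with nicotine in the postnatal samples. Per kb region 5 was 1.51-fold higher (limma, adjusted p = 5.08e-05), and 1.28-fold in the other table (adjusted p = 0.0434). Magi2 region 4 was near the floor at 2.27 adjusted reads. Anks1b, encoding a postsynaptic density protein, had 2 high regions 953688 bp apart, region 1 with 65.1 and region 3 with 74.3 adjusted reads per kb (limma, adjusted p = 0.0621). In the other table Anks1b region 3 was 1.23-fold higher (adjusted p = 0.0461). Camta1, a calmodulin-binding transcription activator, held 158 adjusted reads per kb at its 5′ region 3 and 102 at region 1, 751122 bp downstream, a 1.55-fold difference (limma, adjusted p = 1.05e-05). Rbfox1, a neuronal splicing factor, was low throughout: its 4 regions lay at 2.28 to 30.45 adjusted reads per kb, below the 35.0 median of all member regions.

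**Figure D3:**
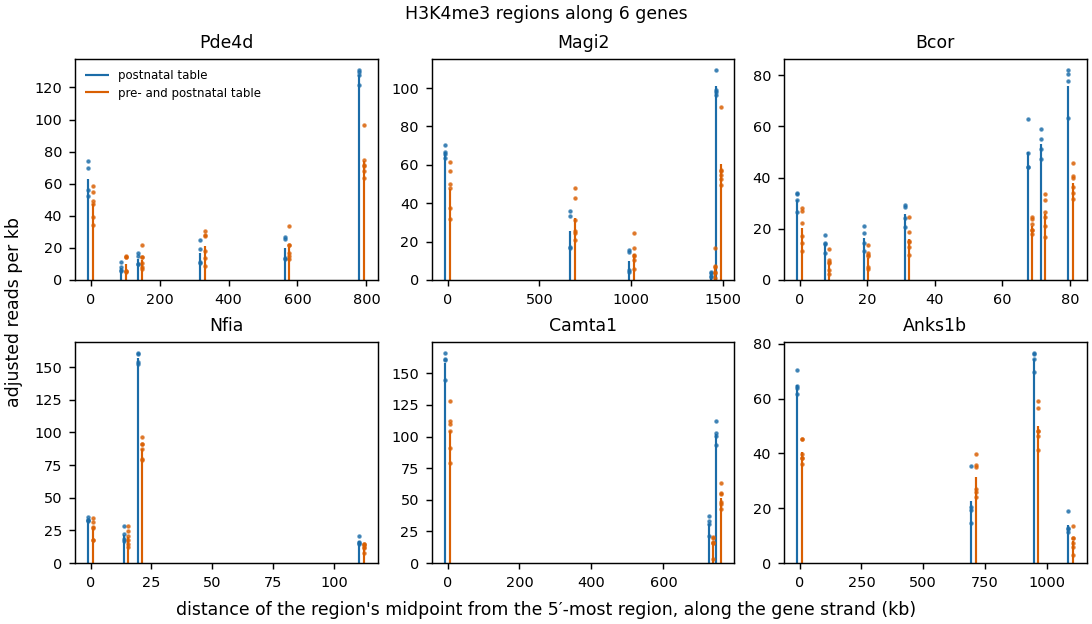
Level of each H3K4me3 region along Pde4d, Magi2, Bcor, Nfia, Camta1 and Anks1b, in adjusted reads per kb, against distance in kb from the 5′-most region along the gene strand; lines are table means, points are samples (4 averaged postnatal samples in blue, 6 pre- and postnatal libraries in orange). Pde4d, Magi2 and Camta1 have a high region at each end, Anks1b 2 high regions with lower ones beside them, Nfia a single high one, and Bcor its highest at the 3′ end.

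Genes known in brain for alternative promoters differed in how level their regions were. Bdnf region 1 (chr2:109516195-109518481) held 62.7 and 54.2 with saccharin and 55.7 and 70.2 with nicotine, and region 2 (chr2:109533241-109535291), 14760 bp downstream, held 69.3 and 79.97 with saccharin and 60.1 and 62.2 with nicotine in the postnatal samples. The Bdnf levels overlapped and differed by 1.24-fold per kb (limma, adjusted p = 0.0927), and by 1.11-fold in the other table (adjusted p = 0.555). Grb10, an imprinted growth regulator with a separate neuronal promoter, likewise held 37.4 and 34.9 adjusted reads per kb (adjusted p = 0.628). Ank3, the ankyrin of the axon initial segment, held 21.8 and 25.5 (limma, adjusted p = 0.277), and Dlg2, the scaffold PSD-93, held 26.9 and 19.7 (adjusted p = 0.0700).

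Others had 1 region above the rest. Nfia, a transcription factor of glial development, held 157 adjusted reads per kb at region 3 (chr4:97443452-97446091) and 16.6 to 33.5 at the other 3, and region 3 exceeded region 1 by 4.57-fold (limma, adjusted p = 4.25e-08). Nfia region 3 read 425 and 402 with saccharin and 423 and 406 with nicotine, and the highest value of any other Nfia region was 45.1. Dlgap4, a PSD-95 binding protein, held 149 and 96.6 adjusted reads per kb at 2 regions with different accessions, a 1.54-fold difference (limma, adjusted p = 2.86e-05). Gabbr1, a GABA-B receptor subunit with 2 well known isoforms, held 96.9 at the upstream and 41.3 at the downstream region, 2754 bp away (2.35-fold, limma, adjusted p = 1.78e-06). Shank3, a synaptic scaffold, held 72.2 and 24.00 (2.99-fold, limma, adjusted p = 2.94e-05).

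The largest gaps within a gene fell in 2 groups. In Tnrc6b, Clasp2, Set and Btbd3 the strong region had an ordinary promoter level and the weak one was low. Tnrc6b, a GW182 protein of microRNA silencing, read 371 and 326 with saccharin and 373 and 352 with nicotine at region 1 and 16.95 and 31.03 with saccharin and 28.04 and 13.4 with nicotine at region 2, a 16.4-fold difference per kb (limma, adjusted p = 4.96e-08). Set, a histone chaperone and phosphatase inhibitor, had regions only 2197 bp apart that differed 8.91-fold (limma, adjusted p = 2.79e-08). Btbd3, which shapes cortical dendrites, differed 9.03-fold between the starts of 2 accessions (limma, adjusted p = 4.64e-08). At the other end, Nova2, a neuronal splicing regulator, held 69.8 and 65.2 adjusted reads per kb (limma, adjusted p = 0.520).

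In Chl1, Ank1, Cdk5rap2 and Mdga2 the strong region instead differed widely between libraries of 1 group. Chl1, a neural adhesion molecule, held 3276 and 5607 with saccharin and 8391 and 3167 with nicotine at region 2 (chr6:103598740-103599585, 845 bp wide), and 54.1 and 67.7 with saccharin and 54.9 and 56.2 with nicotine at region 1. In the pre- and postnatal libraries Chl1 region 2 read 20491, 10101 and 12284 with saccharin and 6669.5, 27439 and 18253 with nicotine, while region 1 stayed between 36.5 and 65.8. Ank1 region 3, in an erythrocyte and muscle ankyrin gene, read 154 and 457 with saccharin and 669 and 212 with nicotine in the postnatal samples and 689, 484 and 758 with saccharin and 202, 1439 and 924 with nicotine in the other table. Ank1 region 2 stayed at 36.3 to 49.9 in the postnatal samples. The share of all signal that lay in the 15 regions with a postnatal mean over 3000, of which Chl1 region 2 is 1, was 8.47% and 18.7% in the averaged saccharin samples and 25.2% and 10.04% in the nicotine ones. In the pre- and postnatal libraries it was 39.9%, 28.8% and 33.1% with saccharin and 19.1%, 49.7% and 41.9% with nicotine. These Chl1, Ank1, Cdk5rap2 and Mdga2 regions were higher in the 2 postnatal samples with a high share than in the 2 with a low one, and in the other table highest in nicotine library 3 and lowest in nicotine library 1, where the share was highest and lowest. The part of that share in their level was not tested.

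**Figure D4:**
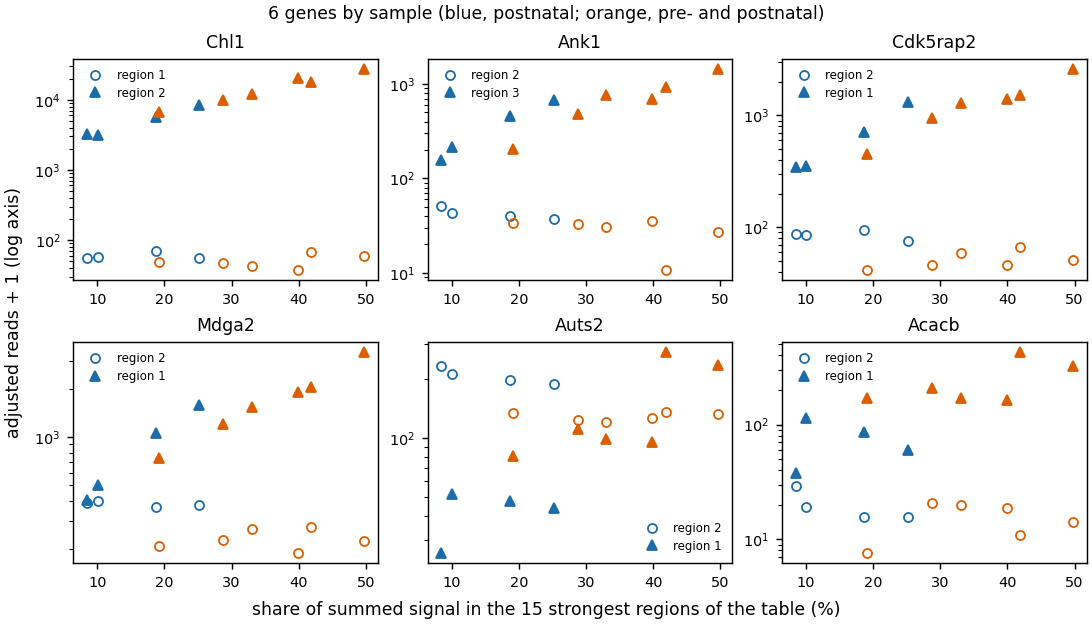
Level of 2 regions of Chl1, Ank1, Cdk5rap2, Mdga2, Auts2 and Acacb in every sample (adjusted reads + 1, log axis) against the share of the sample's signal in the 15 strongest regions; triangles are the region named in the text, circles the compared region of the gene. In Chl1, Ank1, Cdk5rap2 and Mdga2 the triangles are higher at a high share, while the circles show no such order; in Auts2 and Acacb the triangles are higher in the pre- and postnatal table.

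The order of regions turned round between the tables in 4 genes, where the pair differed at an adjusted p under 0.05 in both tables (limma) but in opposite directions: Auts2, Sepsecs, Hpse2 and Kcnq1. These were 4 of the 1042 same-gene pairs tested in both tables, with no limit on fold. The share over all pairs is not given here, so the 4 are not read as a trait of genes with several regions. In Auts2, a gene of neurodevelopment, region 1 (chr5:131995301-131996195) averaged 41.3 and region 2 (chr5:132012728-132015183) 206 adjusted reads in the postnatal table, and 148 and 128 in the other. Per kb, Auts2 region 2 led by 1.84-fold in the first (limma, adjusted p = 9.14e-04) and region 1 by 2.825-fold in the second (adjusted p = 3.79e-07). Sepsecs, which makes selenocysteine tRNA, averaged 18.7 and 130.4 in the postnatal table and 58.3 and 54.99 in the other. Each table was adjusted on its own and held other libraries, so exposure and table cannot be told apart here, and the change between tables was not tested.

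Nicotine and saccharin were then compared at each region and in the difference between the regions of a gene. By limma with Benjamini-Hochberg adjustment over all regions, 0 of 1555 member regions were called in either exposure (0% of all regions, smallest adjusted p 0.99984 postnatal and 0.987 pre- and postnatal). At an unadjusted p under 0.05, 28 member regions stood out after postnatal exposure (17 higher and 11 lower with nicotine), 1.80% of them against 1.89% of all regions. After pre- and postnatal exposure it was 60 (20 higher and 40 lower), 3.86% against 3.59%. The groups did not overlap in 29.8% of member regions after postnatal exposure (29.1% of all) and in 9.39% after pre- and postnatal exposure (8.95% of all). These shares were near the background. The median 95% interval of a member region, before adjustment, reached 1.43-fold to either side in the postnatal comparison and 1.57-fold in the other. Smaller changes were mostly not detectable, and larger ones could also go uncalled after adjustment.

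After postnatal exposure the regions with the lowest unadjusted p included weak and main regions of their genes. Zc3h7a, encoding a zinc finger protein of microRNA processing, read 137 and 171 with saccharin and 253 and 188 with nicotine at region 1 (log2 difference 0.51 ± 0.15 SE, limma, adjusted p = 0.99984), and 305 and 295 with saccharin and 309 and 331 with nicotine at region 2. The Zc3h7a groups did not overlap at region 1 and the higher value in each group was a sample with a high share in the strongest regions, whose part was not tested. Grin2d, an NMDA receptor subunit, read 87.4 and 94.3 with saccharin and 119 and 144 with nicotine at region 1 (log2 difference 0.52 ± 0.15) and 112 and 114 with saccharin and 156 and 133 with nicotine at region 2 (0.35 ± 0.14). Both Grin2d regions were higher in each nicotine sample than in each saccharin one. Rbfox2, a splicing factor, read 322 and 305 with saccharin and 386 and 401 with nicotine at its main region 3, with no overlap (log2 difference 0.33 ± 0.10). Lower with nicotine were Pfkm region 2, in the muscle phosphofructokinase gene (61.2 and 72.97 with saccharin and 44.2 and 41.3 with nicotine), and Prkg1 region 2, in a cGMP-dependent kinase gene (128 and 126 with saccharin and 83.2 and 105 with nicotine). None of these passed adjustment.

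After pre- and postnatal exposure the regions with the lowest p values included both strong and weak regions of their genes. Csda, encoding a cold shock domain protein also named Ybx3, read 57.3, 70.3 and 72.00 with saccharin and 67.00, 158 and 177 with nicotine at region 1 (log2 difference 0.89 ± 0.26 SE, limma, adjusted p = 0.987). The Csda groups overlapped: nicotine library 1 lay within the saccharin range. Acacb region 1, the stronger of 2 in the acetyl-CoA carboxylase gene of fat oxidation, gave the same picture with 162, 209 and 169.8 with saccharin and 168, 322 and 425 with nicotine, and Auts2 region 1 read 94.7, 109 and 98.1 with saccharin and 80.2, 234 and 272 with nicotine. In nicotine library 1 the 15 strongest regions also took the smallest share, 19.1%, and without it limma called Csda, Acacb and Auts2 region 1 and Ank1 region 3, among 17 of all regions. Cacnb4, a calcium channel beta subunit, was lower with nicotine at its weak downstream region 1 (44.8, 58.1 and 42.3 with saccharin and 22.7, 25.3 and 29.5 with nicotine, no overlap, log2 difference -0.88 ± 0.29, limma, adjusted p = 0.987) and read 151, 174 and 150.0 with saccharin and 149, 150.2 and 131 with nicotine at region 2. Cacnb4 region 1 showed no such difference after postnatal exposure (14.00 and 38.98 with saccharin and 36.1 and 17.8 with nicotine).

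In the difference between regions, limma called 0 of 1043 same-gene pairs in either exposure (0% of all pairs). At an unadjusted p under 0.05 there were 24 after postnatal exposure (2.30% against 2.2% of all pairs) and 69 after pre- and postnatal exposure (6.62% against 4.33%). The groups did not overlap in 27.9% of same-gene pairs (28.6% of all) and in 12.4% (9.68% of all). Over pairs with means of at least 20 in both regions, the pre- and postnatal share was 22 of 531, or 4.14%, against 3.51% of all such pairs. The part of weak regions in these shares was not tested. The median interval of a same-gene pair reached 1.87-fold to either side after postnatal and 2.05-fold after pre- and postnatal exposure.

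Among the leading pairs after pre- and postnatal exposure, Chd9, Adam12 and Atn1 each set a weak region against the strongest region of the gene. Chd9 region 5 also led when set against regions 1 and 4. Chd9, a chromodomain remodeller, read 236, 217 and 235 with saccharin and 249, 187 and 235 with nicotine at region 3 (chr8:93431206-93433752) and 16.6, 10.4 and 7.325 with saccharin and 1.91, 0.3215 and 0.977 with nicotine at region 5 (chr8:93484126-93485031). The Chd9 region 5 groups did not overlap, with the nicotine values near the floor. The log2 ratio of region 5 to region 3 differed by -2.55 ± 0.48 SE between nicotine and saccharin (limma, adjusted p = 0.681). Adam12, a metalloprotease, read 19.7, 12.6 and 9.58 with saccharin and 0.919, 0.530 and 3.94 with nicotine at region 1 and 70.7, 51.8 and 77.03 with saccharin and 56.8, 75.3 and 74.6 with nicotine at region 2 (log2 difference of the ratio 2.62 ± 0.63, limma, adjusted p = 0.750). The same Adam12 and Chd9 weak regions were at 3.13 and 2.03 adjusted reads in the postnatal table. Before and after birth, both reached 1 in every saccharin library but not in every nicotine library. They passed the filter on low values only through the saccharin group, so no support is drawn from their lack of overlap. Atn1, the atrophin 1 corepressor, read 32.1, 19.5 and 19.8 with saccharin and 16.2, 6.91 and 6.84 with nicotine at region 1 and 203, 185 and 140.3 with saccharin and 272, 168 and 197 with nicotine at region 2 (log2 difference of the ratio 1.5 ± 0.37, limma, adjusted p = 0.788). Atn1 region 1 was lower in each nicotine library than in each saccharin library. In Acacb both regions differed between the group means, in opposite directions. Acacb region 2, the weak one, read 17.7, 19.5 and 19.02 with saccharin and 6.58, 13.2 and 9.82 with nicotine, without overlap, beside the overlapping groups of its strong region 1 (log2 difference of the ratio of region 2 to region 1 -1.57 ± 0.36, limma, adjusted p = 0.750). Bdnf showed overlapping groups at both regions, 63.4, 40.3 and 48.2 with saccharin and 29.3, 59.1 and 38.3 with nicotine at region 1 and 42.7, 58.4 and 38.5 with saccharin and 34.97, 42.3 and 55.00 with nicotine at region 2 (log2 difference of the ratio 0.21 ± 0.43).

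**Figure D5:**
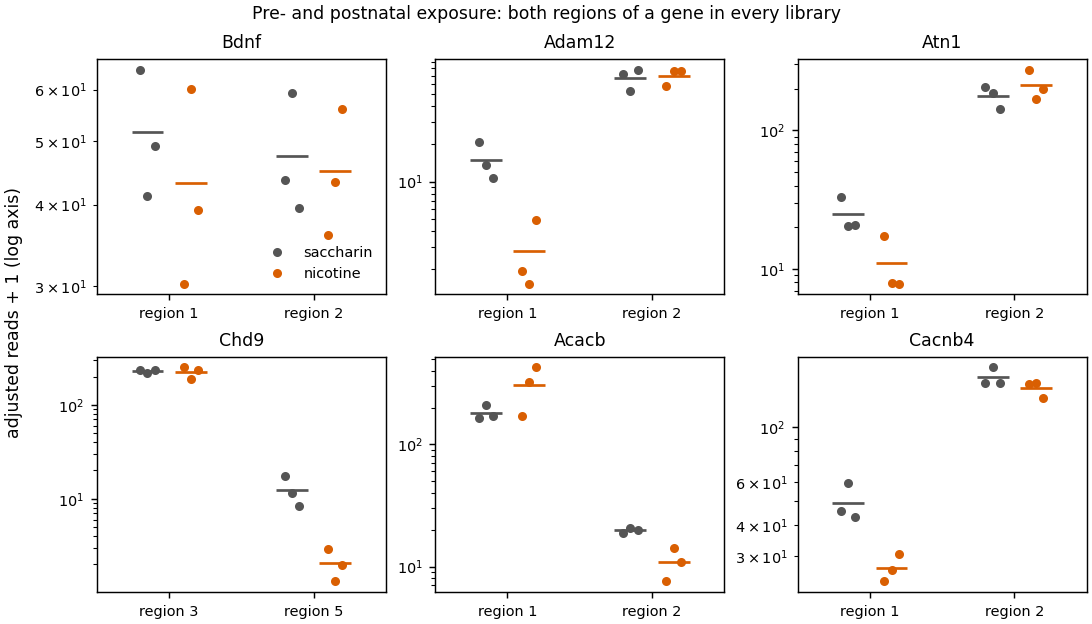
Both regions of Bdnf, Adam12, Atn1, Chd9, Acacb and Cacnb4 in the 6 pre- and postnatal libraries (adjusted reads + 1, log axis; points are libraries, bars are group means, saccharin grey and nicotine orange). The groups overlap at both Bdnf regions and separate at the weak regions of Adam12, Atn1, Chd9, Acacb and Cacnb4, and none of the pairs passed adjustment. The weak regions of Adam12 and Chd9 passed the filter on low values only through the saccharin group.

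After postnatal exposure the leading pairs were others. Srcin1, a Src signalling inhibitor at synapses, read 212 and 195 with saccharin and 264 and 245 with nicotine at region 3 and 146 and 139.8 with saccharin and 131 and 126 with nicotine at region 2, so the ratio was higher with nicotine (log2 difference 0.47 ± 0.16 SE, limma, adjusted p = 0.99968). In the other table the Srcin1 difference was -0.07 ± 0.31. Rabgap1l, a Rab GTPase-activating protein, had the ratio of region 3 to region 2 higher with nicotine by 1.25 ± 0.44 on the log2 scale (limma, adjusted p = 0.99968) and the difference was -0.42 ± 0.42 in the other table. Rabgap1l region 2 was weak, with 9.84 and 21.1 with saccharin and 7.99 and 4.11 with nicotine, and region 3 read 354 and 331 with saccharin and 359 and 354 with nicotine.

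Several gene groups of neurons held many multi-region genes. Of 70 measured genes with known alternative promoters 30 had 2 or more regions (42.9%, where 6.73% of all genes did), of 39 synaptic adhesion and scaffold genes 20 (51.3%), of 56 transcription and chromatin regulators 19 (33.9%) and of 31 RNA binding genes 11 (35.5%). Ion channel and receptor genes had 12 of 44, imprinted genes 7 of 25 and cytoskeleton and transport genes 11 of 40. The lists were made with earlier results known and were not tested. The median fold between the 2 strongest regions was 1.49 for the synaptic list, where it was 1.41 in Dlg2 and 2.76 in Shank3, and 3.55 for transcription and chromatin regulators, as in Nfia and Chd9, beside 2.26 for all 710 genes. By limma 0 regions of any list were called for nicotine in either exposure. At an unadjusted p under 0.05, 4 of 78 regions of the alternative-promoter list and 3 of 49 of the synaptic list were counted after pre- and postnatal exposure (3.59% of all regions), and 1 and 0 after postnatal exposure (1.89% of all). These are too few regions to set apart from that background.

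Neither the share of signal in these genes nor its split between regions passed a test of treatment. Regions of multi-region genes took, after postnatal exposure, 10.4% ± 0.44 of named-gene signal in nicotine samples and 10.3% ± 0.31 in saccharin samples (SD, n = 2 averaged samples, exact permutation test, p = 1, smallest possible 0.333). After pre- and postnatal exposure it was 12.3% ± 1.49 and 12.1% ± 1.01 (SD, n = 3, exact permutation test, p = 0.9, smallest possible 0.1). The median share of a gene's signal in its strongest region was 76.0% ± 2.12 and 75.7% ± 1.61 after postnatal exposure (exact permutation p = 1), and 73.7% ± 1.91 and 72.0% ± 1.18 after pre- and postnatal exposure (exact permutation p = 0.4).

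The tissue label was checked by markers with a region: 6 of 10 neuronal and 6 of 8 oligodendrocyte-line markers had one, as did 2 of 7 for astrocytes and 2 of 4 for endothelium, against 0 of 5 for microglia, 0 of 3 for blood and 0 of 3 for other tissues. In bulk cortex a level mixes cell types, and fewer cells with an active promoter and less mark per cell cannot be told apart. Summed signal ran from 2004918 to 2489860 adjusted reads in postnatal libraries and from 1445810 to 2372855 in the others. Postnatal libraries 1 and 2, and 3 and 4, of a group differed by 0.985 to 1.08 times the variance of counting noise, against 1.94 to 2.60 for other pairs of a group. They were counted as 1 sample each.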

How the data were processed

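H3K4me3 ChIP-seq of cerebral cortex (50 mg tissue samples, C57BL/6J mice of 3 months) gave 14 libraries in 4 groups, taken from the labels. Each deposited value is a signal, namely region read counts that the authors adjusted with edgeR, per the submitters' processing notes, on build mm9. The values are not whole, and each exposure has its own table. The aligner and peak caller were not given in the sources used here, and the raw depth is unknown, so counting intervals are not given. No label ties replicates to separate animals; p-values therefore measure only the spread between samples, which may be technical.

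Postnatal libraries 1 and 2, and 3 and 4, of a group were averaged, since they differed by about counting noise (regions averaging 10 to 1000). This left 2 against 2 postnatal samples and 3 against 3 pre- and postnatal libraries. limma 3.58.1 with trend in R 4.3.3 was fitted on log2(value + 1) over all regions that reached 1 in enough samples to fill the smaller group, two-sided, with Benjamini-Hochberg adjusted p under 0.05. Fold changes are on that scale and understate changes of low regions. Differences between 2 regions were fitted on all neighbouring pairs and all same-gene pairs, levels after division by width in kb. 1 member region of 1556 was left out in each table by the filter on low values. Shares were compared with exact permutation tests. The fits were tested on simulated data. Of the member accessions, 1523 were found in a RefSeq gene table (GRCm38.p6), used for names only, and 549 genes had a start in the RefSeq promoter table of that assembly. Positions in exons or introns were not analysed here.

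Members, gene lists and tests were chosen with earlier results of these data known. Genes were named by rule: the 6 with the most regions, the 5 with the widest spread of regions, the 8 with the largest and 6 with the smallest level difference, per exposure and direction the 4 regions and the 4 pairs with the lowest p, and listed genes with known alternative promoters. Not all of them are described. Genes with printed sequences, genes whose order changed between tables and genes called by an alternative were picked with values in view. Alternatives were all 8 postnatal libraries, quantile normalization, a pseudocount of 5, filters on low values, a replicate block and summed levels. Others were a high or low term for the strongest regions' share of signal, and leaving out each sample. Same-numbered samples of the 2 treatments did not deviate together, so the main fits have no block. Plots were made in Python 3.11.15 using matplotlib 3.10.9.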

Additional observations from a re-analysis of the deposited data

How the results depend on the processing

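For nicotine against saccharin, limma with Benjamini-Hochberg adjustment called 0 member regions and 0 same-gene pairs with all 8 postnatal libraries, quantile normalization, a pseudocount of 5, no filter, or means of at least 20. Another fit had a term that marked each postnatal sample as high or low in the strongest regions' share of signal. With this term, 5 postnatal regions of members were called among 9 of all regions. Each of the 5 was higher with nicotine: Ank1 region 3, Cdk5rap2 region 1, Litaf region 1, Mdga2 region 1 and Zc3h7a region 1. With so few samples, the term leaves little from which to estimate the spread. Leaving out a sample gave 0 to 8 postnatal member regions. Without nicotine libraries 1 and 2 it was 3, all lower with nicotine, among 7 of all regions, and without nicotine libraries 3 and 4 it was 8, all higher, among 31. Smo region 2 and Mamdc2 region 1 were called in both, with opposite signs. Postnatal pairs numbered 0 to 5 (5 without saccharin libraries 3 and 4, among 22 of all pairs). After pre- and postnatal exposure it was 0 to 4 regions and 0 to 1 pairs (4 of 17 regions and 1 of 3 pairs without nicotine library 1). The lone sample of a group is then assumed to vary like the others, and the cause was not tested. With means of at least 20, level differences were called in 288 of 596 same-gene pairs (postnatal) and 191 of 531 (pre- and postnatal), against 627 and 529 of 1043 without that filter. The share called was thus lower too, and the cause was not tested. The share over all pairs with that filter is not given here, so no excess of same-gene pairs over the background is read from these counts.

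With the replicate number as a block, 0 member regions and 0 same-gene pairs were called in either exposure, with 21 regions and 10 pairs at an unadjusted p under 0.05 postnatal and 40 and 60 pre- and postnatal. Same-numbered postnatal samples deviated in opposite directions (r = -0.4645). The crossed pairing, added after the data were seen, is the high or low term for the strongest regions' share. It called the same 5 regions and 0 pairs. In the pre- and postnatal libraries, same-numbered samples had r = -0.106 and -0.098.

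The share of signal in the strongest region, nicotine minus saccharin, was -0.460 points postnatal with quantile normalization, and -1.257 to 1.744 when leaving out a sample (0.6286 to 2.384 pre- and postnatal). The share of named-gene signal in members was -0.0582 points pre- and postnatal with quantile normalization and -0.0457 without regions with a mean over 3000. Leaving out a sample it was -0.2316 to 0.3927 postnatal and -0.5119 to 0.9719 pre- and postnatal. No permutation p was under 0.2. With 2 against 2 postnatal samples the smallest possible p is 0.333, and leaving out a sample allows no lower one. There the outcome was fixed in advance and nothing is drawn from it. With a spacing tolerance of 250 or 1000 bp, chosen after seeing the data, the stronger start had more CG in 58 of 80 and 95 of 134 genes. Raw depth is unknown, so what it limits at weak regions could not be computed.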
